A study of Mus musculus with 4 samples.

Results

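Serotonergic neurons make serotonin from tryptophan, load it into vesicles, release it and take it back up, and their cell bodies lie mainly in the raphe nuclei of the brainstem. The 7 genes described here are Tph2, Slc6a4, Fev, Gata2, Gata3, Maoa and Maob, genes of serotonin synthesis, transport, breakdown and raphe transcription, which are 7 of 25044 deposited entries and were found by gene symbol. They were chosen on their levels in these same libraries, for being confined to a library or present in all, so those levels are given as a description and carry no test. Tph2 encodes the neuronal tryptophan hydroxylase, the first and rate-limiting enzyme of serotonin synthesis. Slc6a4 encodes the serotonin reuptake transporter. Fev, also called Pet-1, is an ETS-family transcription factor of serotonergic neurons, and the zinc-finger factors Gata2 and Gata3 act before and beside it in development but are also used by other neurons and by blood and vessel cells. Maoa and Maob encode the monoamine oxidases of the outer mitochondrial membrane, which break down serotonin and other amines in many cell types.

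RNA came from the parasubthalamic nucleus, a small cell group of the posterior lateral hypothalamus beside the subthalamic nucleus, of naive mice of the inbred strain C57BL/6. All 4 libraries, numbered as replicates 1 to 4, belong to 1 group with no treatment or stress, and the labels give no age, sex or number of animals per sample. The series profiled this tissue under physiological conditions, and the libraries are compared here for which serotonin genes each held. In bulk tissue, fewer cells of a type and less RNA per cell cannot be told apart.

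The unit was taken to be FPKM, which divides fragments by the length of the transcript and by library size. Totals lay between 428612 and 442836 FPKM per library, and the spacing of low values implied between 19300000 and 20800000 fragments. One such fragment on the longest annotated Slc6a4 transcript, of 2796 bases, would be worth 0.0172 to 0.0185 FPKM, and on that of Tph2, of 2626 bases, 0.0183 to 0.0197 FPKM. Tissue markers were present in every library: the sum of 6 parasubthalamic genes such as Calb2, Slc17a6 and Tac1 was 502, 346, 313 and 437 FPKM in replicates 1 to 4. Neuronal markers led by Snap25, Stmn2 and Syt1 summed to between 1475 and 1685 FPKM, oligodendrocyte markers such as Mbp and Mobp to between 5355 and 7793 FPKM, and microglial markers led by Csf1r, P2ry12 and Tmem119 to between 42.0 and 49.1 FPKM. Libraries stood apart in other ways: genes of caudal hindbrain and spinal cord summed to 34.5 FPKM in replicate 1 and to between 0.421 and 0.846 FPKM in the others. In replicate 4 Ttr, a choroid plexus gene, was at 49.7 FPKM against 0.587 to 1.99 FPKM elsewhere, while the other ependymal markers Foxj1 and Ccdc153 were at 4.97 to 6.45 and 2.81 to 4.30 FPKM in the 4 libraries.

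Tph2 and Slc6a4 were confined to replicate 2. A gene is called confined here where its highest library held 0.5 FPKM or more and at least 10 times the second-highest library. Tph2 was at 0.198, 26.7, 0.275 and 0.319 FPKM in replicates 1 to 4. Replicate 2 thus held 83.8 times the next library, while replicates 1, 3 and 4 averaged 0.264 ± 0.0611 FPKM (SD, n = 3). Its place among all 25044 entries was percentile 89.1 in replicate 2 and between 35.1 and 38.6 in the others. Slc6a4 was at 16.7 FPKM in replicate 2 and is listed at 0 in replicates 1, 3 and 4, so no fold is given. The synthesis enzyme and the transporter were therefore present together in a single library, where Slc6a4 stood at 0.623 of the Tph2 level per length. Over all 4 libraries the means were 6.88 ± 13.2 FPKM for Tph2 and 4.17 ± 8.33 FPKM for Slc6a4 (SD, n = 4), with SDs larger than the means because a single library set them.

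**Figure D1:**
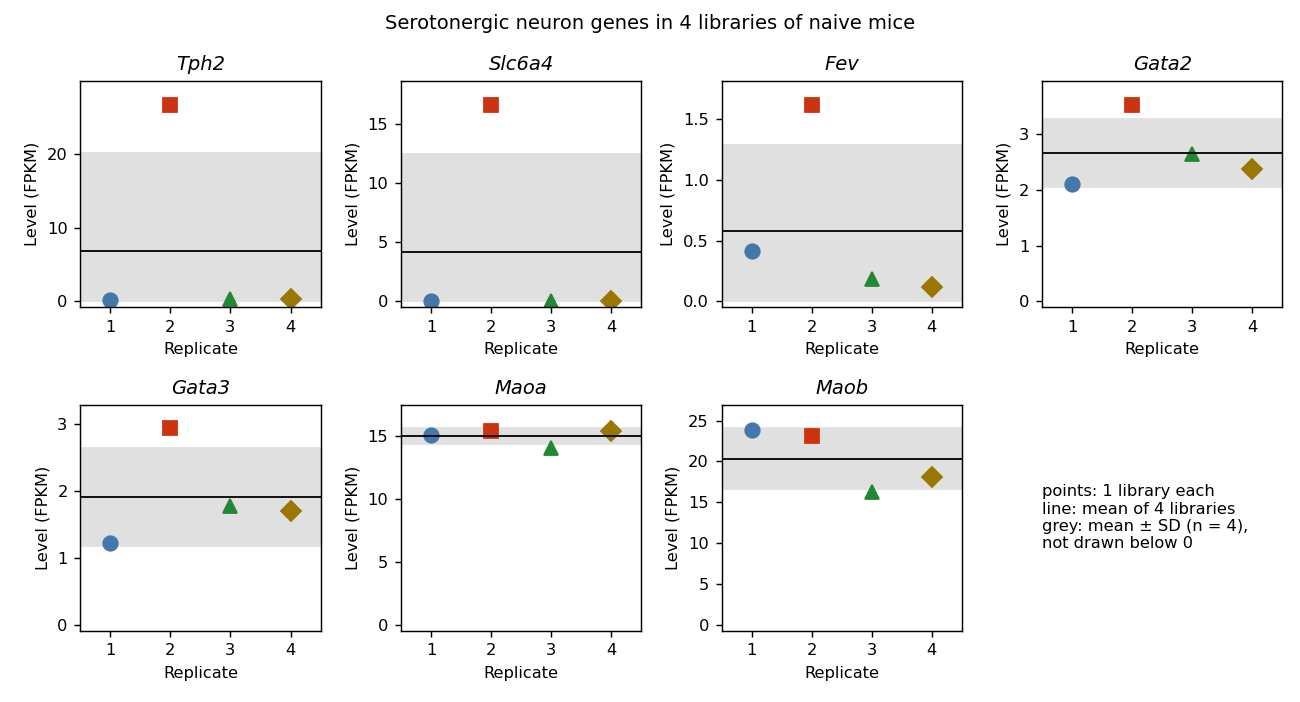
Level in FPKM (vertical axis, from 0) of each of the 7 genes in replicates 1 to 4 (horizontal axis), with 1 point per library, the mean as a line and mean ± SD (n = 4) in grey. Tph2 and Slc6a4 stand at 26.7 and 16.7 FPKM in replicate 2 and at or near 0 elsewhere, while Maoa and Maob are present at similar levels throughout.

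Fev, the raphe transcription factor, was also highest in replicate 2 but did not meet the call. It was at 0.416, 1.62, 0.181 and 0.113 FPKM in replicates 1 to 4. The level in replicate 2 was 3.89 times that of replicate 1 and did not overlap with the other libraries, whose mean was 0.237 ± 0.159 FPKM (SD, n = 3). In replicate 2 the Fev level was 0.0606 of that of Tph2. In replicate 1 Fev was above Tph2, at 0.416 against 0.198 FPKM, and in replicates 3 and 4 it was below. The order of Fev and Tph2 was thus not the same among these 3 libraries. One fragment on the longest Fev transcript, of 1490 bases, would be worth 0.0323 to 0.0347 FPKM. These low levels thus stand for small numbers of fragments, and their order may not be stable.

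The 4 other genes had a baseline everywhere, taken as 0.5 FPKM or more in each library. Of the 7 genes, 2 were confined to replicate 2, against 0.0716% of the 15363 entries that reached 0.5 FPKM in any library, and 4 had the baseline, against 89.0% of those entries. These 2 shares are a description, since the genes were listed for this pattern. Replicate 2 had 11 confined entries, and 5 of them carry no Ensembl identifier. The other named genes among them, given after their values were seen, were Oxt at 44.0 FPKM, Gm28036 at 1.99 FPKM, Pitx1 at 1.00 FPKM and Scd4 at 0.794 FPKM. Over any library 0.534% of entries were confined, with 0.202% in replicate 1, 0.182% in replicate 3 and 0.0781% in replicate 4.

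**Figure D2:**
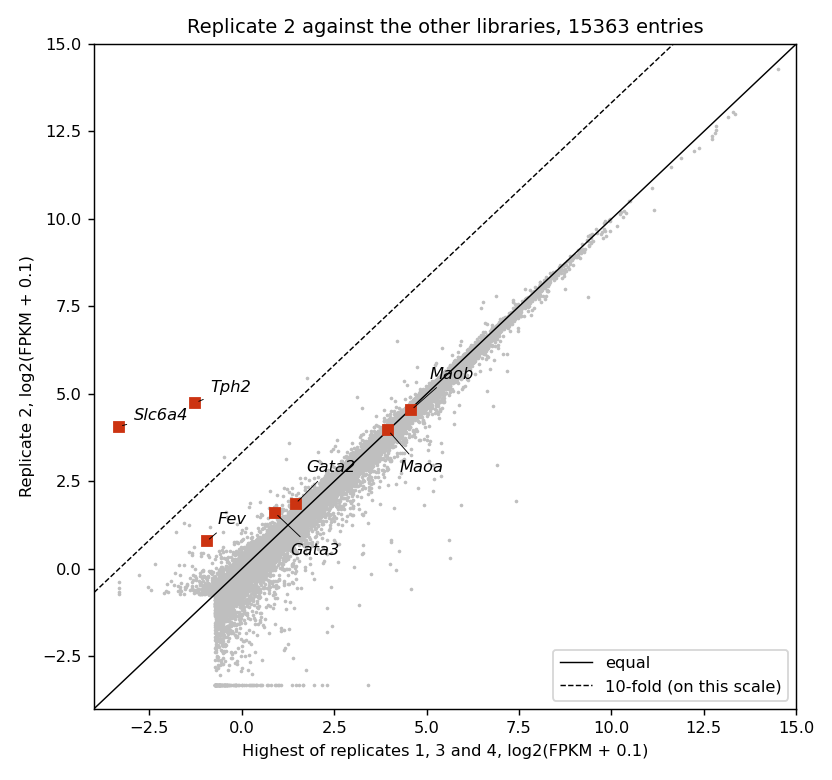
Level in replicate 2 (vertical axis) against the highest of replicates 1, 3 and 4 (horizontal axis), both as log2(FPKM + 0.1), for the 15363 entries that reached 0.5 FPKM in any library, in grey, with the 7 genes as red squares. Slc6a4 and Tph2 lie above the dashed line of a 10-fold difference, Fev lies between the lines, and Maoa and Maob lie near the line of equal levels.

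The bases before the starts of Tph2, Slc6a4 and Fev are shown because these are the 3 members at least 2-fold higher in replicate 2 than in each other library. They come from RefSeq on GRCm38.p6 and hold up to 250 bases before the RefSeq start, read 5′ to 3′ on the gene's own strand. For Fev, 11 bases that GENCODE M21 places in its first exon were left off, so 239 remain. Capitals mark a GATA word on either strand, where the first letter is A or T, GATA follows and the last letter is A or G, or a TATAAA word on the gene's strand. The Tph2 stretch is chr10:115185023-115185272 on the minus strand, the Slc6a4 stretch is chr11:76998347-76998596 on the plus strand, and the Fev stretch is chr1:74885420-74885658 on the minus strand.
Tph2: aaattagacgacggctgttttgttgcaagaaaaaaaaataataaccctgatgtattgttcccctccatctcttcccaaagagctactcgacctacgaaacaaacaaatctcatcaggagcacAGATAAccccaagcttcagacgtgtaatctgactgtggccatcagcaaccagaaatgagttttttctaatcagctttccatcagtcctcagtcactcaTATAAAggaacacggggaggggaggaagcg
Slc6a4: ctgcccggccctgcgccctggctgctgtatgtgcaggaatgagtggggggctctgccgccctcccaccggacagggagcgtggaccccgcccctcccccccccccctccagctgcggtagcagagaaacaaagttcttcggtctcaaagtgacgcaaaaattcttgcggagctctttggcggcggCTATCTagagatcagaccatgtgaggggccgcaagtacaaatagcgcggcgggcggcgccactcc
Fev: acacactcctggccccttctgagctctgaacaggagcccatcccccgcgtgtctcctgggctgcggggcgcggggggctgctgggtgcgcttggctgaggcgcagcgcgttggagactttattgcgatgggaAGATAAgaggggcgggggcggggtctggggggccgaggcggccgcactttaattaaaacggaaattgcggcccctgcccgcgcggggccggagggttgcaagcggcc

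Each of the 3 stretches holds 1 GATA word. It is AGATAA in Tph2 and Fev, beginning 128 and 118 bases before the start, and AGATAG read on the other strand in Slc6a4, beginning 65 bases before it. Such a word was present in 26.5% of the 32851 RefSeq promoters at this window of 250 bases. Of the remaining members, Maoa has 1, read on the other strand and beginning 238 bases before its start. None was found before the single RefSeq start of Gata3 or the 2 starts of Gata2, and Maob was not matched. TATAAA was present in Tph2, and in 7.59% of all promoters. Base composition differed: the window before Tph2 was 43.6% G and C with 7 CpG pairs, against 64.8% and 18 for Slc6a4 and 68.0% and 22 for Fev, with a median of 52.4% and 6 over all promoters. These matches describe the letters and say nothing of whether a factor binds there.

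In the genome Tph2 (ENSMUSG00000006764) spans GRCm38 chromosome 10 from 115078641 to 115185022 on the minus strand, and its longest annotated transcript has 11 exons. Slc6a4 (ENSMUSG00000020838) spans chromosome 11 from 76998603 to 77032340 on the plus strand with 15 exons, and the antisense gene Gm12343 lies over it without sharing exon bases. Fev (ENSMUSG00000055197) spans chromosome 1 from 74881509 to 74885419 on the minus strand with 3 exons. No other annotated gene overlaps Tph2 or Fev.

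Gata2 was at 2.11, 3.53, 2.64 and 2.38 FPKM in replicates 1 to 4, with a mean of 2.67 ± 0.617 FPKM (SD, n = 4). Gata3 was at 1.22, 2.93, 1.77 and 1.69 FPKM in the same order, with a mean of 1.90 ± 0.725 FPKM. Both genes were highest in replicate 2 and lowest in replicate 1, and replicate 2 stood 1.34 times above the next library for Gata2 and 1.66 times for Gata3. Gata2 was above Gata3 in 4 of 4 libraries, by ratios of 1.73, 1.21, 1.49 and 1.40, although the ranges of the 2 genes over libraries overlap. Gata2 (ENSMUSG00000015053) lies on GRCm38 chromosome 6 from 88193891 to 88207032. Gata3 (ENSMUSG00000015619) lies on chromosome 2 from 9857078 to 9890034, where its exons overlap those of the antisense gene Gm13256 and of 9230102O04Rik, so its level is uncertain. The antisense overlap matters because the use of strand is not given, and 9230102O04Rik lies on the same strand as Gata3, where strand would not separate the reads.

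Gata2 and Gata3 are also used by GABAergic interneurons of midbrain and spinal cord, in which Tal1 and Sox14 are active. Tal1 was at 0.658, 3.999, 2.39 and 2.20 FPKM in replicates 1 to 4, which is the order of libraries seen for Gata2 and Gata3. Sox14, named after its values were seen, was at 3.34 FPKM in replicate 2 and 0.824 to 1.03 FPKM elsewhere. Lhx5, the most abundant of this list, was at 4.73 FPKM in replicate 2, above the 2.84 to 4.03 FPKM of the others. Lhx1 was at 3.60 FPKM in replicate 2, inside their range of 3.08 to 4.38 FPKM. The 7 genes of that list summed to 16.3 FPKM in replicate 2 and to between 9.41 and 11.0 FPKM in the others. Of the 5 that reached 0.5 FPKM, 4 were highest in replicate 2, against 29.2% of entries. The part of such interneurons in the Gata2 and Gata3 levels was not tested.

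The lists of other cell types that use GATA factors did not share 1 pattern. Gata1, the erythroid and mast cell member of the family, is listed at 0 in all 4 libraries, and the blood and mast cell list summed to 8.72 FPKM in replicate 2 against 13.2 to 38.3 FPKM elsewhere. Its leading genes were the haemoglobin genes Hbb-bs, at 1.33 against 3.50 to 18.9 FPKM, and Hba-a1, at 0.808 against 3.90 to 11.1 FPKM, and the receptor gene Kit, at 6.47 against 4.42 to 7.78 FPKM. Endothelial markers, led by Cldn5, Pecam1 and Flt1, summed to 62.6 FPKM in replicate 2, within the 55.4 to 68.9 FPKM of the others. Of these 6 markers, 3 were highest in replicate 2, against 29.2% of entries. Some pituitary cells use Gata2. Of the 4 genes of the pituitary list that reached 0.5 FPKM, 3 were highest in replicate 2, against 29.2% of entries. Pomc was at 30.1 against 2.83 to 8.65 FPKM and Cga at 12.1 against 0.0676 to 2.34 FPKM. Gh, Prl and Pou1f1 were at 0.213, 0.0510 and 0 FPKM in replicate 2, and were named after their values were seen. Tshb, the thyrotropin subunit, was at 0.726 FPKM in replicate 2, inside the 0.331 to 0.749 FPKM of the others, and the list of 8 summed to 44.3 FPKM against 4.60 to 11.8 FPKM. Pomc made up the largest part of that sum in replicate 2. Whether pituitary RNA was present, whether Pomc came from it or from other cells, and its part in the Gata2 level were not tested.

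Maoa had the steadiest level of the 7 genes. It was at 15.1, 15.4, 14.1 and 15.4 FPKM in replicates 1 to 4, with a mean of 15.02 ± 0.622 FPKM (SD, n = 4), a coefficient of variation of 4.14%. Maob was at 23.8, 23.1, 16.3 and 18.1 FPKM in the same order, with a mean of 20.3 ± 3.71 FPKM and a coefficient of variation of 18.3%. Replicate 2 did not stand out for either enzyme. Maob was above Maoa in 4 of 4 libraries and their ranges do not overlap, with ratios between 1.15 and 1.58. Both genes lie on GRCm38 chromosome X, Maoa (ENSMUSG00000025037) from 16619698 to 16687818 on the plus strand and Maob (ENSMUSG00000040147) from 16709282 to 16817366 on the minus strand. They point toward each other with 21463 bases between them, and each has 15 exons in its longest transcript.

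Maob is known from histaminergic neurons and astrocytes as well as serotonergic neurons. Hdc, which makes histamine and marks neurons of the neighbouring tuberomammillary nucleus, was at 19.5, 18.2, 10.1 and 14.3 FPKM in replicates 1 to 4, the same order of libraries as Maob. Wif1, of the same list, was also highest in replicate 1 and lowest in replicate 3, at 4.06, 3.76, 2.30 and 3.81 FPKM, with replicates 2 and 4 close together. Hrh3, the histamine autoreceptor, departed from that order and was highest in replicate 3, at 31.1 FPKM against 22.9 to 23.8 FPKM. The 7 astrocyte markers summed to 987, 983, 920 and 940 FPKM, with Aldoc at 531 to 551 FPKM, Slc1a2 at 98.9 to 105 FPKM and Gfap at 82.2 to 109 FPKM. Their sums also fall in the order of Maob, but over a narrower range. Among these markers Aldoc alone follows that order, and it is the most abundant. In replicate 2 Gfap was highest, at 109 FPKM, and Slc1a2 lowest, at 98.9 FPKM. The part of either cell type in the Maob level was not tested.

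By mean level the order of the 7 genes was Maob, Maoa, Tph2, Slc6a4, Gata2, Gata3 and Fev. Of neighbours in that order, Maob and Maoa alone had ranges that do not overlap. The order by library was different in replicate 2, where Tph2 came first and Slc6a4 the third. In replicates 1, 3 and 4 the first 4 were Maob, Maoa, Gata2 and Gata3, and Slc6a4 was last. Replicate 2 was the highest library for 5 of the 7 genes, against 29.2% of entries, while Maob was highest in replicate 1, as were 27.4% of entries, and Maoa in replicate 4, as were 21.0%. None of the 7 was highest in replicate 3, against 22.4% of entries. Replicate 2 was at least 2-fold above each other library for 3 genes, against 0.729% of entries.

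The rest of the serotonin pathway was set against Maoa within each library, on log2(FPKM + 0.1), which makes differences of weakly expressed genes look smaller. Of 45 further genes in 4 lists, 41 passed the filter of a mean of 0.1 FPKM, and the limma test called 9 higher than Maoa, 30 lower and 2 neither at an adjusted p under 0.05. Among all 17623 entries tested, 22.9% were called higher and 71.0% lower, so these counts are near the background. The median difference was -2.21 for the pathway genes and -1.61 for all entries.

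Synthesis, cofactor and vesicle genes stood high. Of 9 tested, 6 were higher than Maoa, against 22.9% of entries, and 2 lower, against 71.0%. Qdpr, which recycles the tetrahydrobiopterin cofactor of the hydroxylases and is also abundant in oligodendrocytes, was at 355, 329, 420 and 382 FPKM in replicates 1 to 4 (log2 difference 4.62, SE 0.09, limma adjusted p = 2.18e-06). Ddc, the decarboxylase that completes serotonin and dopamine alike, was at 88.3, 174, 77.8 and 86.2 FPKM (2.74, SE 0.21, limma adjusted p = 0.000109). Slc18a2, the vesicular monoamine transporter, was at 42.6, 78.9, 34.4 and 35.4 FPKM (1.58, SE 0.22, limma adjusted p = 0.00129). Spr, an enzyme of cofactor synthesis, did not pass, at 14.8 ± 0.941 FPKM (SD, n = 4) and a log2 difference of -0.02 (SE 0.07, limma adjusted p = 0.746). Tph1, the hydroxylase of pineal and gut, did not reach the filter and was at most 0.0697 FPKM in any library.

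Of the 9 synthesis, cofactor and vesicle genes that reached 0.5 FPKM, 4 were highest in the library of Tph2 and Slc6a4, against 29.2% of entries. These were Ddc, Slc18a2, Gch1 and Gchfr, while Qdpr, Pts and Spr were lowest there. Dopamine neuron genes were also high in that library. Th, the dopamine-side hydroxylase, was at 118, 223, 103 and 104 FPKM in replicates 1 to 4, and the dopamine transporter gene Slc6a3 at 92.5, 196, 90.3 and 88.9 FPKM. The ratio of Ddc to Th was 0.749, 0.783, 0.752 and 0.826, so replicate 2 lay inside the range of the others. That of Slc18a2 to Slc6a3 was 0.461, 0.403, 0.381 and 0.398, again with replicate 2 inside. Aldh1a1, the most abundant of 10 dopamine markers, was at 255 FPKM in replicate 2 and 155 to 203 FPKM elsewhere. Of the 10, 8 were highest in replicate 2, against 29.2% of entries, among them Foxa2, which is also in the raphe list. Gch1, the first cofactor enzyme, was at 10.2 FPKM in replicate 2 against 3.93 to 5.25 FPKM, and its regulatory partner Gchfr at 3.64 against 0.660 to 1.31 FPKM, both named after their values were seen. How much of the Ddc, Slc18a2 and Gch1 levels came from either cell type was not tested.

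**Figure D3:**
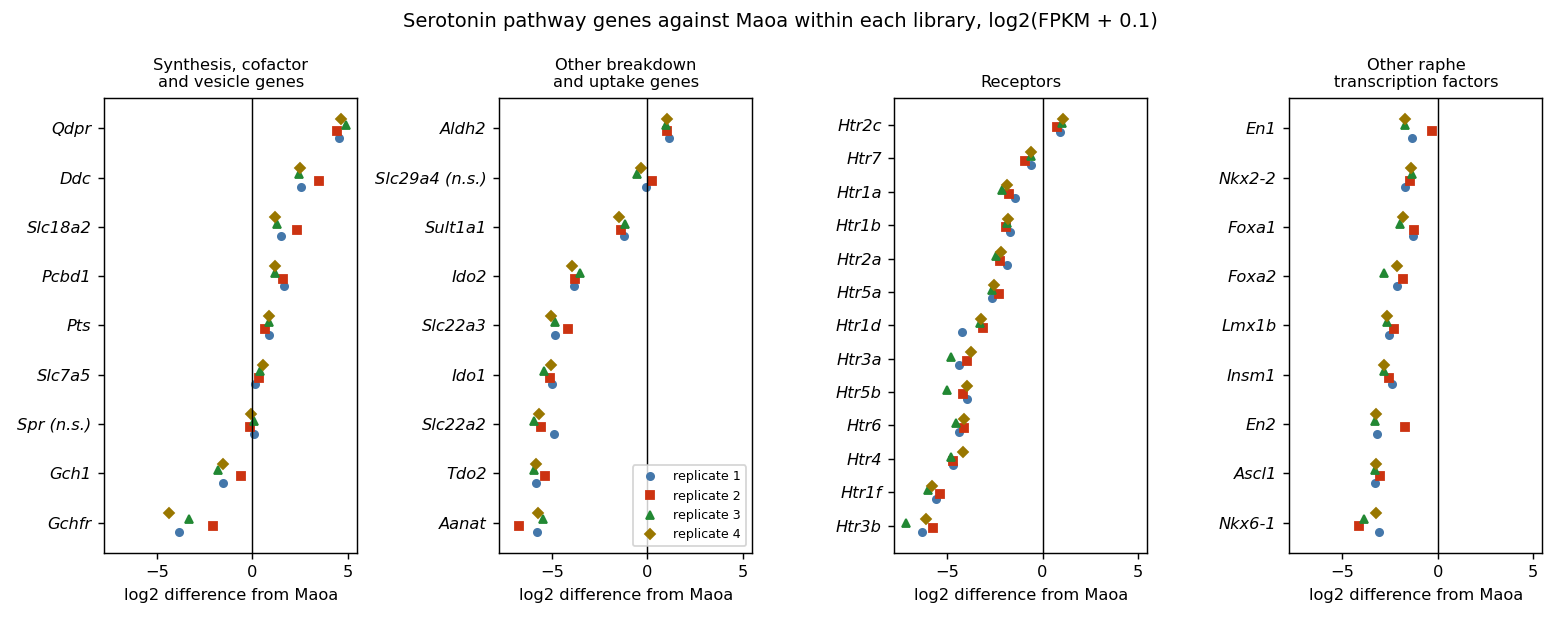
Log2 difference from Maoa within each library (horizontal axis, log2(FPKM + 0.1)) for 40 of the 41 pathway genes tested, in 4 panels by role, with 1 point per library and "n.s." beside the 2 genes that did not pass limma at an adjusted p under 0.05. Ddc, Slc18a2, Gch1, Gchfr, En1 and En2 have their rightmost point in replicate 2, and the receptors other than Htr2c lie left of 0.

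Breakdown and uptake genes beyond the monoamine oxidases were compared in the same way. Of 10 tested, 2 were higher than Maoa, against 22.9% of entries, and 7 lower, against 71.0%, so these counts are near the background. Aldh2, which oxidises the aldehyde left by monoamine oxidase, was at 27.9 to 33.5 FPKM (1.04, SE 0.05, limma adjusted p = 2.61e-05). Slc29a4, a low-affinity monoamine transporter of the plasma membrane, was at 14.3, 18.5, 9.45 and 12.3 FPKM and did not pass (-0.18, SE 0.15, limma adjusted p = 0.297).

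Serotonin receptors covered a wide range of levels. Of 13 tested, Htr2c was higher than Maoa, against 22.9% of entries, and the other 12 were lower, against 71.0%. Htr2c, a Gq-coupled receptor, was at 28.2, 25.8, 29.2 and 32.7 FPKM in replicates 1 to 4 (0.94, SE 0.08, limma adjusted p = 0.000156). Htr7, a Gs-coupled receptor, was at 9.72, 8.17, 9.22 and 10.1 FPKM (-0.69, SE 0.07, limma adjusted p = 0.000476). Htr1a, which is the autoreceptor on serotonergic cell bodies and is also found on other neurons, was at 5.50, 4.58, 3.14 and 4.17 FPKM (-1.79, SE 0.12, limma adjusted p = 7.98e-05). Replicate 2 lay inside the range of the other libraries for Htr1a and below it for Htr2c and Htr7. Of the 11 receptors that reached 0.5 FPKM, 2 were highest in replicate 2, against 29.2% of entries. In replicate 2, 0 were at least 2-fold above each other library, against 0.729%, so these counts say little about the receptors. The 14 receptors summed to 54.1 FPKM in replicate 2 and to between 53.3 and 62.7 FPKM in the others.

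Of 9 raphe transcription factors other than Fev, Gata2 and Gata3, 6 were highest in replicate 2, against 29.2% of entries. All 9 had a baseline, against 89.0% of entries, and all 9 were lower than Maoa, against 71.0%, so the last 2 counts say little about these genes. En1, which patterns midbrain and anterior hindbrain and is kept in dopamine and serotonergic neurons, was at 5.82, 12.7, 4.24 and 4.75 FPKM (-1.26, SE 0.27, limma adjusted p = 0.00789). Nkx2-2, also a gene of oligodendrocyte precursors, was at 4.59, 5.54, 5.62 and 5.84 FPKM (-1.46, SE 0.08, limma adjusted p = 3.33e-05), and Foxa1 at 6.04, 6.42, 3.50 and 4.35 FPKM (-1.59, SE 0.15, limma adjusted p = 0.000291). En2, the paralogue of En1, was at 4.60 FPKM in replicate 2 against 1.39 to 1.59 FPKM. Lmx1b, which serotonergic neurons require, was at 3.11 FPKM in replicate 2 and 2.16 to 2.48 FPKM elsewhere. Nkx6-1 was lowest in replicate 2, at 0.786 FPKM against 0.894 to 1.70 FPKM. Insm1 was at 2.53 FPKM there, inside the 1.93 to 2.77 FPKM of the others. En2, Lmx1b, Nkx6-1 and Insm1 were named after their values were seen.

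Genes of noradrenergic neurons, another aminergic group of the brainstem, were near 0. Of 5 noradrenergic genes, 0 reached 0.5 FPKM in any library. Dbh, which makes noradrenaline, was at 0.0386 FPKM in replicate 2, and Pnmt is listed at 0 there and at 0.103 FPKM in replicate 1. The 42 genes of caudal hindbrain and spinal cord, mostly Hox genes, summed to 0.816 FPKM in replicate 2 and to 34.5 FPKM in replicate 1, and 12 of them are listed at 0 in every library. The library with Tph2 and Slc6a4 was thus not the library with Hox genes such as Hoxb8 at 4.81 FPKM, Hoxa7 at 3.80 FPKM and the glycine transporter gene Slc6a5 at 4.83 FPKM.

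**Figure D4:**
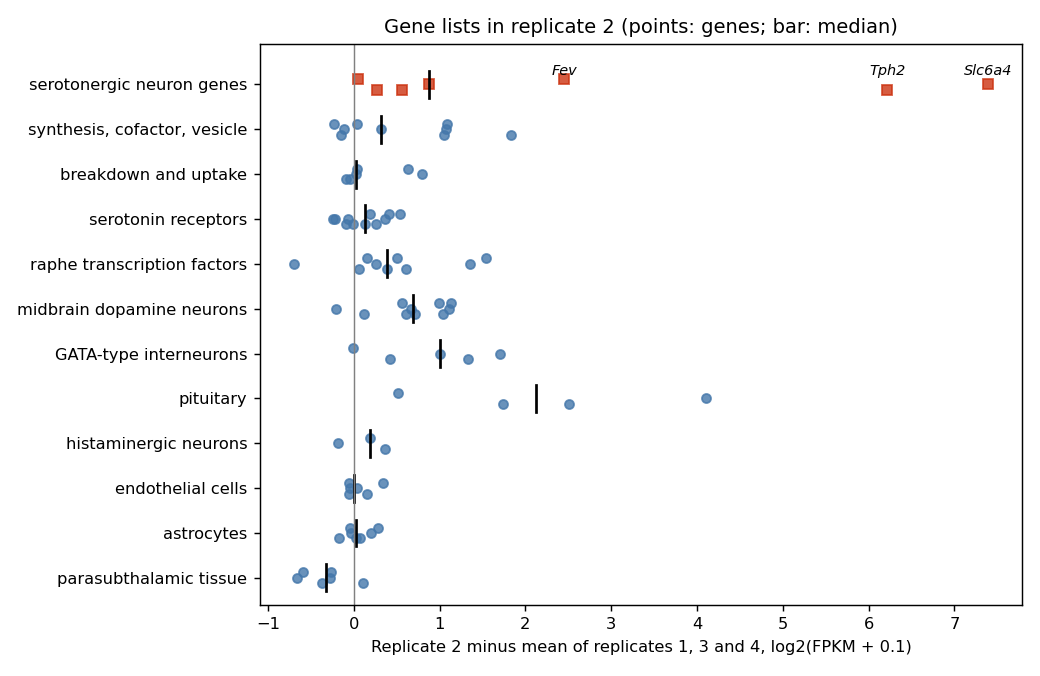
Replicate 2 minus the mean of replicates 1, 3 and 4 (horizontal axis, log2(FPKM + 0.1)) for the 7 serotonergic neuron genes (red squares) and for genes of 11 lists that reached 0.5 FPKM in any library (blue points), with each list's median as a bar. Slc6a4 and Tph2 lie farthest to the right. The list medians are highest for pituitary genes at 2.13, GATA-type interneuron genes with 1.00 and dopamine genes with 0.69, against a median of 0.04 over all 15363 entries.

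Genes most like each member were found by the root mean square difference of log2(FPKM + 0.1), centred on each gene's mean, over the 4 libraries and among 13015 annotated genes that reached 1 FPKM. The nearest to Tph2 was Slc6a4, at 0.54, and it was followed by Oxt, the oxytocin gene, at 0.83, Gm28036 at 1.25, Avp, the vasopressin gene, at 1.34 and Pax5, a gene of the embryonic midbrain and hindbrain border, at 1.41. Pax5 was at 2.36 FPKM in replicate 2 and 0.178 to 0.237 FPKM elsewhere. For Slc6a4 the nearest were Tph2 at 0.54, Oxt at 1.32 and Gm28036 at 1.77. Nearest to Fev were Ces1d at 0.20, Pax8 at 0.30 and Apoc3 at 0.32. No gene lay within 0.5 of Tph2 or Slc6a4, and 10 did of Fev.

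For the genes with a baseline, whose levels vary less, a closer limit of 0.1 was used, so these counts are not comparable with those at 0.5. Nearest to Gata2 were Kcnd3 at 0.020, Gm42742 at 0.042 and Ttll9 at 0.043, and nearest to Gata3 were Klhl14 at 0.037, Sema3e at 0.072 and Cldn1 at 0.075. Within 0.1 there were 64 genes for Gata2, 6 for Gata3, 238 for Maob and 5261 for Maoa. The nearest to Maob were Hopx at 0.015, Rpl7a at 0.015 and Asb3 at 0.021, and to Maoa they were Fgfr1op at 0.0039, Myl6 at 0.0046 and Gps1 at 0.0046. With 4 libraries these distances describe profiles and carry no test.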

How the data were processed

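RNA was extracted with TRIzol and made into Illumina mRNA libraries, per the labels' protocols, and the assembly was GRCm38, per the submitters' processing notes. No source used here names the aligner, quantifier or annotation, or says whether strand was used. Labels and headers leave the unit of the deposited values unnamed, and they were read as FPKM, because they are not whole numbers and their totals differ. Low values under 0.3 FPKM in genes with 1 transcript of over 1000 bases gathered at a common step, which gave the implied fragments, but 23.4% to 25.7% lay within 0.05 of a whole step, so no counts were recovered and no counting intervals were computed. The column headed with the letter C was taken as replicate 3 from its sample's title, and 0 columns were unused. Nothing in the labels says that each replicate is another animal, so a p-value here reflects only how these samples vary, which may be technical.

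GENCODE M21 matched 22022 of 22036 Ensembl identifiers, and 3008 loci have none. Each entry with a mean of 0.1 FPKM or more was compared with Maoa within libraries on log2(FPKM + 0.1) by limma 3.58.1 in R 4.3.3, intercept only, two-sided, with Benjamini-Hochberg adjustment over 17623 entries and a threshold of 0.05. The 7 genes described were left out of this test. The prior degrees of freedom were limited to 1.63, the value from fitting each gene's own level (1.65 without the limit). On data simulated for this comparison over 17630 genes, of which 200 were shifted, 4.85% to 5.42% of unchanged genes had an unadjusted p under 0.05. It recovered 0% of genes shifted by 0.5 log2 units, 58.4% of those shifted by 1 and 90.7% of those shifted by 2. These shares do not carry over to the data, where 22.9% of entries were called higher and 71.0% lower. With so few shifted genes the adjustment was stricter in the simulation. In the data smaller differences did pass, such as Csf1r at 0.163 (limma adjusted p = 0.0246).

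The 7 genes, the lists, the reference gene and the tests were chosen with earlier results of these data known. Genes named are the 7 members, the 3 most abundant and every confined gene of each pathway and marker list, Htr1a and Htr2c, and the 5 genes nearest to Tph2 or 3 nearest to each other member. Some genes that the naming rule takes are not reported here, while counts and sums over lists include them. Any further gene was named with its values in view. Promoters came from RefSeq, which matched 6 of the 7 genes. Alternatives changed the value added, the filter, the prior, the length scaling, the total, the limits of the calls and the libraries used. Descriptions used pandas 2.3.3 and numpy 2.4.6 under Python 3.11.15, and plots used matplotlib 3.10.9.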

Additional observations from a re-analysis of the deposited data

Results flagged for a closer look

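For 30 of the 89 genes compared, 1 of the 4 libraries stood apart, meaning that its gap to the nearest other library, over the whole range, passed Dixon's 95% critical value. Chance gives about 5%, the genes are not independent, and many of these genes were named because they are high in a single library, so the share is a description. The 7 serotonergic neuron genes were not compared in this way, since their levels chose them.

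In replicate 2 this held for Ddc at 174 FPKM, Th at 223 FPKM, Slc6a3 at 196 FPKM, En2 at 4.60 FPKM and Sox14 at 3.34 FPKM. It also held there for Oxt at 44.0 FPKM, Gm28036 at 1.99 FPKM, Pax5 at 2.36 FPKM and Ces1d at 2.95 FPKM, which were the genes found nearest in profile.

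Where a gene is listed at 0 in all other libraries, any value above 0 stands apart in this way. In replicate 1 this was so for Pnmt, at only 0.103 FPKM, and for most of the Hox genes. High values there set apart Slc6a5 at 4.83 FPKM and 14 Hox genes. These were Hoxb8 at 4.81, Hoxa7 at 3.80, Hoxc6 at 3.06, Hoxb6 at 2.48, Hoxb5 at 1.90, Hoxd8 at 1.88, Hoxa5 at 1.502, Hoxc8 at 1.30, Hoxc4 at 1.13, Hoxb9 at 1.05, Hoxc5 at 1.01, Hoxb7 at 0.776, Hoxa4 at 0.760 and Hoxb2 at 0.543 FPKM. In replicate 3, Hrh3 at 31.1 and Ccdc153 at 4.30 FPKM were high, and Wif1 at 2.30 and P2ry12 at 12.5 FPKM were low. In replicate 4, Ttr was high at 49.7 FPKM.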

How the results depend on the processing

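Tph2 and Slc6a4 stayed the 2 confined members with a limit of 5-fold or 20-fold, with 1 FPKM in the highest library and with libraries rescaled to the same total, while without replicate 2 no member was confined, so leaving out single libraries gave 0 to 2. The members with a baseline numbered 4 under each alternative but that of any value above 0, which gave 6. Over all entries, 82 were confined to a library, 124 at 5-fold, 33 with 1 FPKM in the highest library, and between 71 and 103 with a replicate left out. The pathway genes called lower than Maoa fell from 30 to 19 with a filter of 1 FPKM, and all entries called lower went from 12504 to 7999 with that filter and to 19878 with no filter, since fewer or more low genes were then tested. Without single replicates the pathway counts were 9 higher and 29 to 30 lower, and those of all entries 3874 to 3939 higher and 12265 to 12500 lower. Of 198 values for 18 single pathway genes against Maoa, 195 kept direction and call, and Slc29a4 at -0.76 and Spr at -0.26 passed as lower on values multiplied by transcript length, while Spr ran from -0.062 without replicate 1 to 0.019 without replicate 2; the cause was not tested. No paired analysis was possible because there is 1 group. Depth is known only through the step of low values, which limits what a listed 0 shows.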
